A study of Zea mays with 18 samples.

Results

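The transcripts described here are the 200 that stood highest in ear inflorescence relative to ear in the control plants of a maize (Zea mays) field study of the transcription factor ATHB17. Of 76612 identifiers in the deposited table, 39715 had a mean of at least 10 normalized counts over all 18 samples. For each of these the mean of the 3 control ear inflorescence samples plus 1 was divided by the mean of the 3 control ear samples plus 1, and the 200 identifiers with the highest ratio were taken. The members were thus chosen by the levels in the 6 control samples. Samples came from 3 genotypes of the commercial hybrid NN6306 grown in Illinois in 2012. Event 1 and event 2 are separate transformants that express ATHB17Δ113, a shortened Arabidopsis HD-Zip II protein without its first 113 residues, and the control was non-transgenic. The transgene was driven by a constitutive monocot promoter, so the protein was not limited to the ear. The transformation vector of the events also carried a selectable marker gene for glyphosate tolerance. The study states that insect protection and glyphosate tolerance traits, where a field entry had them, were the same in events and control. Ear was collected at R1, when silks emerge, and ear inflorescence at V16, a late vegetative stage, with 3 biological replicates of each tissue and genotype. The values are read counts that the authors scaled over all samples with DESeq, called normalized counts here, and tissue differences are given as ear minus ear inflorescence on the log2(normalized count + 1) scale. In samples of whole organs, fewer cells of a type and less RNA per cell cannot be told apart.

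The young maize ear is a branching structure. Its inflorescence meristem makes rows of axillary meristems, these become spikelet pairs, spikelets and then florets, and boundary genes keep each new primordium apart from the meristem that made it. Auxin and gibberellin act in the outgrowth and the fate of these meristems. By silking the florets have formed their pistils, and genes that act in meristem branching are known mainly from the earlier stages.

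Assignments of reads to transcripts summed to between 27293941 and 52655576 per library, where a read that mapped to several transcripts counts once for each, so the number of reads is lower. Of the 18 libraries, 2 stood apart from their groups. On the first principal component of the identifiers that passed the mean filter, which held 78.1% of the variance, event 2 ear replicate 2 lay at -58.4, while the remaining ears had scores between -158.7 and -112.6. The score of replicate 1 of event 1 ear inflorescence was 202.4, against 72.1 and 119.2 in the other 2 libraries of its group. The labelled tissues were checked against marker genes. Of 17 markers of inflorescence meristem and spikelet, 4 were called lower in ear in event 1 and 3 in event 2, and none higher. The marker ba1, called lower in both events, is itself a member. Of 11 floral organ MADS markers, 2 in event 1 and 3 in event 2 were called higher in ear, and 0 lower. Of 7 photosynthesis markers 5 in event 1 and 4 in event 2 were called higher in ear. Over all identifiers that passed the mean filter, 11.5% were called lower and 15.2% higher in event 1, and 5.05% lower and 9.54% higher in event 2. The photosynthesis markers summed to between 9206 and 14238 normalized counts in ears and to between 2729 and 5762 in ear inflorescences, so green tissue markers moved with the tissue difference, and their part in it was not tested. Neither of the 2 pollen or anther markers passed a mean of 10 in any group. Of the 3 endosperm or kernel markers, fl2 averaged 1.13 or less in each group, sh2 between 21.4 and 35.7 in ears and between 60.2 and 79.5 in ear inflorescences, and bt2 between 1604 and 1719.5 in all groups, and none was called.

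By the rule, the ratio of ear inflorescence to ear in control ran from 7.25 to 215 with a median of 8.91. The rule used the control samples, so these values and the control tissue difference describe how the members were chosen and are not tested. Just inside the limit were AC189098.3 with a ratio of 7.2737 and GRMZM2G469313 with 7.2539, and just outside were AC217941.2 with 7.2515 and GRMZM2G425747 with 7.2497. Members ranged in level over a wide span, from a mean of 19.3 to 8838 normalized counts in control ear inflorescence with a median of 82.6, against a median of 5.76 in control ear. Together they held between 0.010% and 0.028% of the normalized counts of an ear library and between 0.110% and 0.266% of an ear inflorescence library. Membership changed with the control libraries and the number added. Without 1 control ear library at a time 150, 140 and 152 of the 200 stayed among the first 200, without 1 control ear inflorescence library 175, 177 and 181, and with 10 added to both means in place of 1, 100.

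Only a minority of the members carry a gene name. RefSeq genes of the maize assembly Zm-B73-REFERENCE-NAM-5.0 matched 57 of the 200 (28.5%), against 41.6% of the 39715 identifiers that passed the mean filter, and 21 of the 57 have a name beyond a locus number. Of the matched members 11 (19.3%) bear the name of a transcription factor family, against 320 of 16506 matched identifiers (1.9%). The 143 unmatched members had lower levels, with a median of 29.2 normalized counts over all samples, against 145.8 in the matched members, so that the counts of members below rest in large part on transcripts with no annotation here. On the assembly 55 members were placed, on 53 genes, since 2 pairs of members fall on 1 gene each. No 2 of the 53 genes were neighbours, and the closest had 13 genes between them.

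Some members are not independent measurements. The authors assigned a read to every transcript it mapped to, up to 10, and 6 members form 3 pairs with the same reads in every library, among them GRMZM2G346920 with GRMZM5G884837. GRMZM2G054603 and cyp78 (GRMZM2G167986) kept a ratio between 0.579 and 0.603 over the 9 ear inflorescence samples, and GRMZM5G825885 stood at between 0.916 and 1.02 times GRMZM2G054603. GRMZM2G576460 stood at between 0.471 and 0.561 times GRMZM2G456217. Reads of such identifiers may be the same reads, so each set is uncertain as a count of separate genes.

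**Figure D1:**
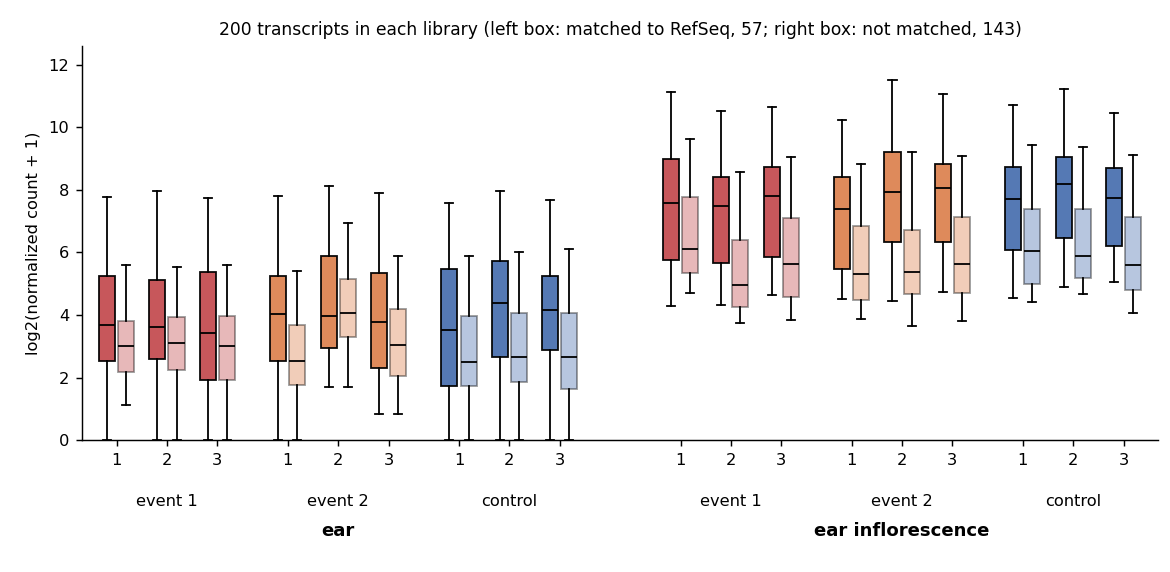
Normalized counts of the 200 transcripts in each library, on a log2(normalized count + 1) axis, for event 1, event 2 and control in ear (left) and ear inflorescence (right), replicates 1 to 3. In each pair of boxes the left, darker box holds the 57 members matched to RefSeq and the right, lighter box the 143 unmatched members, with the median as a line, the quartiles as the box and the 5th and 95th percentiles as whiskers. The median of the unmatched members was 15.7 normalized counts in event 2 ear replicate 2, against 4.76 and 7.20 in the other 2 event 2 ears.

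The first question was whether transcripts chosen in control behaved alike in the 2 events, whose samples entered the rule only through the mean filter. That filter needed no event sample, since all 200 members also had a mean of at least 10 over the 6 control samples, but it did leave out 11 identifiers with the ratio of a member and a control mean of at least 10. In these 11 the ratio of ear inflorescence to ear was between 2.52 and 14.8 in event 1 and between 2.02 and 11.3 in event 2.

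In event 1 all 3 ears lay below all 3 ear inflorescences for 194 of the 200 members, against 31.9% of the identifiers that passed the mean filter. The limma test called 127 members lower in ear at the study's threshold of a raw p at or below 0.0001 and none higher, against 11.5% of those identifiers called lower. At a Benjamini-Hochberg adjusted p under 0.05, over all identifiers tested, 192 members were lower, against 29.1%. The difference was below 0 in all 200 members and its median was -3.04, against 0.03 over all identifiers that passed the filter. It ran from -8.16 to -0.90, with a median standard error of 0.54. Without event 1 ear inflorescence replicate 1, the library that stood apart, 83 members were called. A fit to the 6 event 1 samples alone called 19. Neither count has a share over all identifiers beside it.

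In event 2 the ears lay below all ear inflorescences for 177 members, against 27.1% of the identifiers that passed the filter. Here 98 members were called lower and none higher, against 5.05% called lower in the background. With the adjusted p, 175 were lower, against 19.9%. All 200 differences were again below 0, between -7.71 and -0.40, with a median of -2.49 against -0.03 over all identifiers that passed the filter. A fit to the event 2 samples alone called 13, again with no share over all identifiers beside it. On the recovered reads edgeR called 159 lower in place of 98. Over all 76612 identifiers, filtered or not, edgeR called 5.47% lower and limma 2.7%. Of the 200 members, 89 were called in both events, 38 in event 1 only, 9 in event 2 only and 64 in neither. The matching shares over all identifiers were not computed, so nothing is read from these counts. Being called in one event and not in the other does not show that the events differ, which is tested further on.

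Many members were close to the limit of detection in ear, so their fitted differences depend on the 1 added before the log. With 3 reads or fewer in every library taken as the floor, 29 members were at the floor in event 1 ear, 12 in event 2 ear and 39 in control ear, and none in any ear inflorescence group. With those members set to the difference that the floor allows, the median difference was -2.93 in event 1 and -2.49 in event 2. The mean over the 9 ears was at least 10 in 92 members. Of these, 75 were called lower in event 1 and 63 in event 2, with medians of -3.15 and -2.64. The other 108 passed the mean filter through ear inflorescence, and 52 of them were called in event 1 and 35 in event 2. For these 108 the filter itself requires a higher mean in ear inflorescence than in ear over all samples. Their calls and their differences below 0 are therefore favoured by the filter. The shares over all identifiers given above are not matched in ear level. No share at a like ear level was computed for the 92 or the 108, so nothing is read from these counts of calls.

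The ratio of the rule, computed within each event, describes the members on a linear scale. Its median over the members was 8.26 in event 1 and 4.95 in event 2. Among the 200 highest ratios of event 1 were 93 members (46.5%), and among those of event 2 were 84 (42.0%). The lowest-ranked member stood at 14769 of 39715 in event 1 and at 11646 in event 2.

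**Figure D2:**
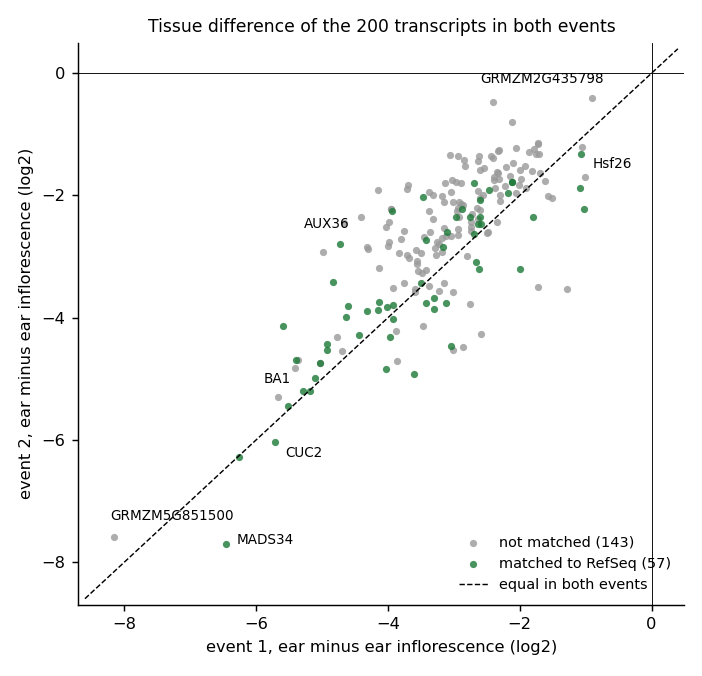
Ear minus ear inflorescence in event 1 (x axis) and event 2 (y axis), both as log2 differences from limma, with 1 point for each of the 200 members, green where matched to RefSeq and grey where not. All points lie below 0 on both axes, and on the dashed line the difference is equal in both events. The median was -3.04 in event 1 and -2.49 in event 2.

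The members with a gene name fall into a few roles, taken from what their symbols are known for. Of these, 6 were placed by symbol as regulators of inflorescence, axillary meristem or organ boundary. All 6 were called lower in ear in both events, with median differences of -5.06 in event 1 and -5.02 in event 2. Over the 200 members 63.5% were called lower in event 1 and 49.0% in event 2, and over all identifiers that passed the filter 11.5% and 5.05%. The roles were given after the files were read and were not tested against each other. All of these regulators but sbp21 (GRMZM2G148467) had a mean under 10 over the 9 ears. Their calls and their differences below 0 are thus favoured by the mean filter, and nothing is read from the count of calls. MADS34 (GRMZM2G137510) shares the number of its symbol with a rice MADS gene of inflorescence meristem identity and spikelet formation. Whether it is the counterpart of that gene was not checked, so its role here rests on the symbol alone. It had 0, 0 and 1.41 normalized counts in event 1 ears, against 14.6, 250.2 and 422 in event 1 ear inflorescences. In event 2 it had 0, 7.83 and 0 in ears, against 309.6, 121 and 2111 in ear inflorescences. Every ear lay below every ear inflorescence, and among the events' ear inflorescences event 1 replicate 1 was the lowest and event 2 replicate 3 the highest. In event 1 a single read was assigned over the 3 ears, so ear held 0.205% of the ear inflorescence level, with a 95% counting interval of 0.00474% to 1.04%. The fitted differences, which at so few reads depend on the 1 added before the log, were -6.46 ± 1.13 in event 1 (SE, adjusted p = 0.000165) and -7.71 ± 1.13 in event 2 (adjusted p = 5.26e-05), by limma.

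CUC2 (GRMZM2G393433) is a NAC protein named after the Arabidopsis gene that sets organ boundaries. It had 4.75, 0 and 2.81 normalized counts in event 1 ears, against 222, 97.6 and 144 in ear inflorescences, and 2.38, 4.47 and 0.80 in event 2 ears, against 129.5, 357 and 201 in ear inflorescences. BA1 (GRMZM2G397518), barren stalk1, encodes a bHLH protein that maize needs to form axillary meristems. Its normalized counts were 4.75, 2.52 and 9.84 in event 1 ears, against 131, 297 and 331 in ear inflorescences, and 4.76, 10.1 and 8.80 in event 2 ears, against 202, 561 and 268 in ear inflorescences. For both genes the tissues were far apart in each event, and the lowest ear inflorescence exceeded the highest ear more than 10 times. CUC2 differed by -5.72 ± 0.59 in event 1 and -6.04 ± 0.59 in event 2 (limma adjusted p = 5.91e-07 and 6.41e-07), and BA1 by -5.29 ± 0.45 and -5.20 ± 0.45 (adjusted p = 5.99e-08 and 1.57e-07).

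Liguleless2 (lg2, GRMZM2G060216) is a bZIP protein that acts at the blade and sheath boundary of the maize leaf. Its levels were 9.51, 3.78 and 4.22 in event 1 ears, against 89.4, 94.8 and 106 in ear inflorescences, and 3.57, 11.2 and 7.20 in event 2 ears, against 125, 133 and 115 in ear inflorescences. The SBP-box gene sbp21 (GRMZM2G148467) belongs to a family that regulates bracts and meristem boundaries in maize ears. It had 11.9, 23.9 and 16.9 in event 1 ears, against 255, 283 and 344 in ear inflorescences, and 16.6, 13.4 and 5.60 in event 2 ears, against 187, 627 and 333 in ear inflorescences. Both were steady among ear inflorescences of event 1 and lower in every ear. The differences of lg2 were -3.93 ± 0.46 and -4.02 ± 0.46, and those of sbp21 -4.03 ± 0.41 and -4.84 ± 0.41, in event 1 and event 2 (limma adjusted p of 3.58e-06 or less).

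Baf1R-1 (GRMZM2G029096), named for its likeness to barren stalk fastigiate1, a gene of maize ear formation, was at 0 reads in all 3 event 1 ears. Event 1 ear inflorescences held 26.3, 18.9 and 41.1 normalized counts, so that ear was at least 7.5-fold lower, with the floor of 3 reads per library. In event 2 it had 1.19, 2.24 and 1.60 in ears, against 22.1, 34.7 and 26.6 in ear inflorescences. With 1, 2 and 2 reads in the event 2 ears, ear held 6.04% of the ear inflorescence level, with a 95% counting interval of 2.02% to 14.5%. Control ears, for which values are a description, held 2.34, 2.64 and 4.22. The ears of event 2 and control held 1 to 4 reads each, so the gap to event 1 was a few reads a library.

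**Figure D3:**
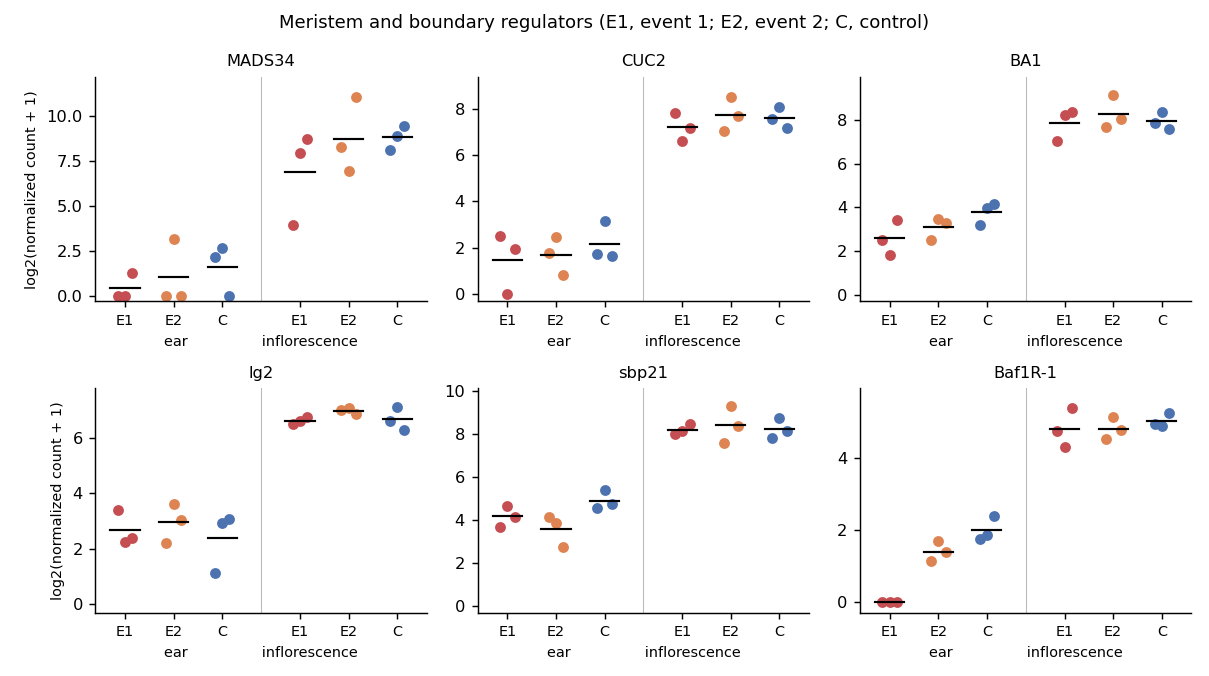
Normalized counts of 6 members placed by symbol as regulators of meristems and boundaries in each library, on a log2(normalized count + 1) axis, for event 1 (E1), event 2 (E2) and control (C) in ear (left) and ear inflorescence (right). Points are the 3 replicates and lines their mean on the log2 scale. Every ear lies below every ear inflorescence in all 6 panels, and Baf1R-1 is at 0 in event 1 ears.

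Other maize genes of the same process were mixed. Among the 17 meristem and spikelet markers, chosen with earlier results known, ub2 was called lower in ear in both events (log2 difference -2.51 in event 1 and -2.62 in event 2), and spi1, an auxin synthesis gene whose control ratio of 7.02 left it just outside the members, was lower by a log2 difference of -5.44 and -3.84. The marker kn1, a meristem homeobox gene, differed by -0.30 and -0.80 and was not called. Higher in ear in both events were td1 (0.59 in event 1 and 0.64 in event 2), ids1 (0.34 and 0.57) and sid1 (0.35 and 0.62), none of them called. Among families named in RefSeq, which were not tested against each other, 6 of 25 SBP-box genes were called lower and 3 higher in ear in event 1, and 5 lower and 2 higher in event 2. Of 17 auxin response factors 8 were called lower in each event, against 4 higher in event 1 and 3 in event 2. Of 40 MADS-box genes 4 were lower and 9 higher in event 1, and 3 lower and 9 higher in event 2. Each of these families holds 1 member. Over all identifiers that passed the mean filter, the shares lower and higher were 11.5% and 15.2% in event 1, and 5.05% and 9.54% in event 2.

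A further 4 members are transcription factors of other families. EREB161 (GRMZM2G021573), of the AP2 and ethylene-response family, had 26.1, 20.1 and 33.7 normalized counts in event 1 ears, against 498, 483 and 664 in ear inflorescences, and 39.2, 41.4 and 25.6 in event 2 ears, against 380.3, 731 and 526 in ear inflorescences. Its spread among replicates was small and its differences were -4.33 ± 0.27 and -3.89 ± 0.27 (limma adjusted p = 1.57e-09 and 1.36e-08). NF-YA4 (GRMZM5G853836), a subunit of the CCAAT-binding NF-Y complex, had the fifth highest ratio of the rule, with 0 reads in control ears. In the events it was present in some ears, with 4.75, 5.04 and 0 in event 1 ears, against 41.6, 18.9 and 38.7 in ear inflorescences, and 0, 11.2 and 1.60 in event 2 ears, against 27.6, 40.5 and 81.4 in ear inflorescences. It did not reach the threshold in event 1 (-3.31 ± 0.76, adjusted p = 0.00188 by limma) and did in event 2 (-3.86 ± 0.76, adjusted p = 0.000956), which says nothing of a difference between the events.

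bHLH24 (GRMZM2G085751) was low and uneven and was called in neither event. It was at 0 reads in all event 1 ears, against 3.47, 4.74 and 24.2 in ear inflorescences, at least 2.8-fold lower by their mean. The floor there was 3.85 normalized counts, above ear inflorescence replicate 1 and close to replicate 2, so that bound rests on replicate 3. In event 2 bHLH24 had 0, 1.12 and 0.80 in ears, against 23.9, 3.47 and 84.95 in ear inflorescences. With 2 reads over the 3 event 2 ears, ear held 1.71% of the ear inflorescence level, with a 95% counting interval of 0.223% to 6.66%. Hsf26 (GRMZM2G003489), a heat shock factor, was called in neither event. Its normalized counts were 19.02, 6.29 and 2.81 in event 1 ears, against 19.4, 19.9 and 10.9 in ear inflorescences, and 4.76, 8.95 and 4.80 in event 2 ears, against 7.35, 21.97 and 25.96 in ear inflorescences. The tissues overlapped in both events, and neither difference passed an adjusted p of 0.05 (-1.06 ± 0.61 with adjusted p = 0.19, and -1.32 ± 0.61 with adjusted p = 0.132, by limma).

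Hormone pathways hold 3 members. an1 (GRMZM2G081554), anther ear1, an ent-copalyl diphosphate synthase at the start of gibberellin synthesis, had 218, 253 and 385 normalized counts in event 1 ears, against 3298, 1477 and 2138 in ear inflorescences. Event 2 gave 222, 602 and 394 in ears, against 1674, 1718 and 2505 in ear inflorescences. The difference was -2.98 ± 0.31 in event 1 and -2.36 ± 0.31 in event 2 on the log2 scale (limma adjusted p = 6.81e-07 and 1.79e-05), with event 2 ear replicate 2 and event 1 ear inflorescence replicate 1 the highest of their groups. ARF11 (GRMZM2G056120), an auxin response factor that binds promoters of auxin-regulated genes, had 233, 278 and 212 in event 1 ears, against 1868, 1188 and 1484 in ear inflorescences, and 239, 281 and 239.9 in event 2 ears, against 1166, 1752 and 1356 in ear inflorescences. It differed by -2.63 ± 0.19 and -2.47 ± 0.19 (limma adjusted p = 9.77e-09 and 4.41e-08). AUX36 (GRMZM2G359924), an Aux/IAA protein of the class that auxin removes to free the response factors, had 0, 11.3 and 5.62 in event 1 ears, against 113, 100.5 and 129 in ear inflorescences, and 28.6, 11.2 and 20.8 in event 2 ears, against 116, 172 and 128 in ear inflorescences. It was called lower in ear in event 1 (-4.72 ± 0.67, adjusted p = 1.98e-05) and missed the threshold in event 2 (-2.79 ± 0.67, adjusted p = 0.00444).

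Another 6 named members are enzymes, transporters or of other kinds. Among them is cyp78 (GRMZM2G167986), of the CYP78 family of cytochrome P450 enzymes, whose members act in organ size and leaf initiation in rice and Arabidopsis. It had 27.3, 33.99 and 37.95 normalized counts in event 1 ears, against 1381, 1370.4 and 1515 in ear inflorescences, and 78.5, 102 and 59.2 in event 2 ears, against 1164, 3854 and 1872 in ear inflorescences. Every ear lay far below every ear inflorescence, and the difference was -5.39 ± 0.34 in event 1 and -4.69 ± 0.34 in event 2 (limma adjusted p = 1.81e-09 and 2.15e-08). K1 (GRMZM2G171279), a potassium channel, had 11.9, 17.6 and 9.84 in event 1 ears, against 335, 183 and 225 in ear inflorescences, with differences of -4.13 ± 0.32 and -3.75 ± 0.32 in event 1 and event 2. GNAT15 (GRMZM2G099305), an N-acetyltransferase, differed by -5.11 ± 0.55 and -4.99 ± 0.55, and CNX5 (GRMZM5G881641), an enzyme of molybdenum cofactor synthesis, by -2.18 ± 0.41 and -1.96 ± 0.41. Of these, only CNX5 in event 2 missed the threshold (adjusted p = 0.00162).

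GRP5 (GRMZM2G146308), a glycine-rich protein, was uneven in ear inflorescence. Event 1 gave 17.8, 18.9 and 32.3 in ears, against 503, 716 and 497 in ear inflorescences, and event 2 gave 19.03, 15.7 and 27.2 in ears, against 807, 111 and 282 in ear inflorescences. The ears of both events were close in level, and the ear inflorescences of event 2 spanned a range of 111 to 807. The differences were -4.61 ± 0.58 and -3.80 ± 0.58 (limma adjusted p = 5.75e-06 and 8.22e-05). asn3 (GRMZM2G053669), an asparagine synthetase, had 17.8, 33.99 and 9.84 in event 1 ears, against 24.3, 55.9 and 41.1 in ear inflorescences, which overlapped. In event 2 it had 24.98, 11.2 and 11.99 in ears, against 27.6, 191 and 75.5 in ear inflorescences, with no overlap. It passed an adjusted p of 0.05 in event 2 (-2.22 ± 0.63, adjusted p = 0.0139) and not in event 1 (-1.03 ± 0.63, adjusted p = 0.221).

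Both members with a role on chromosomes were called in both events. TERT (GRMZM2G167338), the catalytic subunit of telomerase, had 28.5, 25.2 and 33.7 normalized counts in event 1 ears, against 491, 194 and 344 in ear inflorescences, and 16.6, 22.4 and 19.2 in event 2 ears, against 229.7, 305 and 296 in ear inflorescences. Its ears were close together in all groups, and its differences were -3.42 ± 0.27 and -3.77 ± 0.27 (limma adjusted p = 2.3e-08 and 2.09e-08). ZYP1 (GRMZM2G143590), which forms the central part of the synaptonemal complex that joins chromosomes in meiosis, had 30.9, 27.7 and 47.8 in event 1 ears, against 683, 253 and 318 in ear inflorescences. In event 2 it had 21.4, 132 and 48.8 in ears, against 332, 287 and 452 in ear inflorescences. Again event 2 ear replicate 2 and event 1 ear inflorescence replicate 1 were the highest of their groups, and the differences were -3.42 ± 0.47 and -2.73 ± 0.47 (adjusted p = 1.48e-05 and 0.000276).

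**Figure D4:**
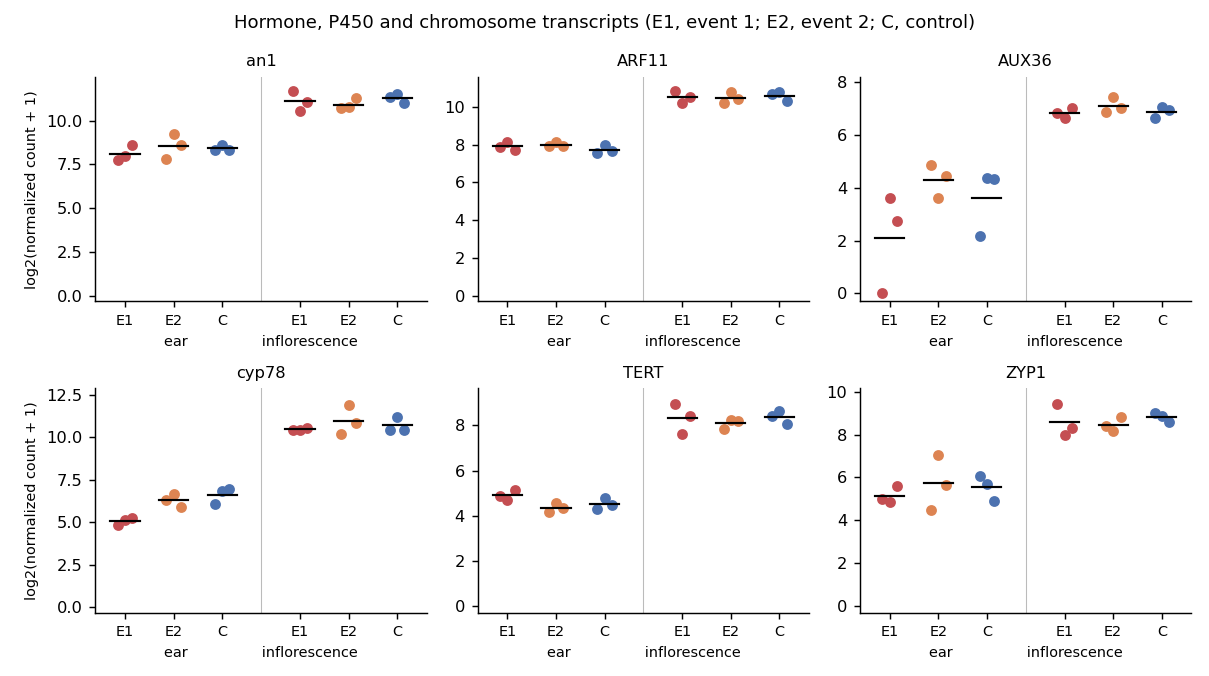
Normalized counts of 3 hormone genes (an1, ARF11, AUX36), the P450 gene cyp78 and 2 chromosome genes (TERT, ZYP1) in each library, on a log2(normalized count + 1) axis, for event 1 (E1), event 2 (E2) and control (C) in ear (left) and ear inflorescence (right). Points are the 3 replicates and lines their mean on the log2 scale. Ears lie below ear inflorescences in every panel, and AUX36 is at 0 in 1 of the 3 event 1 ears.

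Several members with the highest ratios have no name here. GRMZM5G851500, first of the 200, had 0 reads in every event 1 ear, against 541, 105 and 407 normalized counts in ear inflorescences, at least 91.2-fold lower. In event 2 it had 0, 2.24 and 0 in ears, against 164, 412 and 336 in ear inflorescences, so ear held 0.246% of the ear inflorescence level, with a 95% counting interval of 0.0275% to 0.822%. GRMZM2G061499 and GRMZM2G147241 (ranks 3 and 4) resembled MADS34 in having their lowest event 1 ear inflorescence in replicate 1. GRMZM2G061499 had 18.7, 86.2 and 168 and GRMZM2G147241 40.9, 214 and 428 in event 1 ear inflorescences, against at most 7.55 in event 1 ears. Their differences were -5.18 ± 0.82 and -6.26 ± 0.82 in event 1 and -5.19 ± 0.82 and -6.29 ± 0.82 in event 2, all called by limma. GRMZM2G032547, ninth, was steadier, at 1.19, 5.04 and 5.62 in event 1 ears, against 285, 153 and 264 in ear inflorescences, and 9.52, 8.95 and 2.40 in event 2 ears, against 196, 389.7 and 286 in ear inflorescences (-5.67 ± 0.46 and -5.31 ± 0.46).

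The members with the highest counts in control ear inflorescence were lower in ear in both events. GRMZM2G010871, the highest in control ear inflorescence, had 1022, 472 and 510.2 normalized counts in event 1 ears, against 6055, 2858 and 3833 in ear inflorescences, and 603, 1756 and 822 in event 2 ears, against 2851, 3168 and 4005 in ear inflorescences. No ear reached the level of any ear inflorescence, and the differences were -2.69 ± 0.35 and -1.79 ± 0.35. GRMZM2G455642 differed by -3.92 ± 0.28 and -3.80 ± 0.28, GRMZM2G300709 by -3.15 ± 0.31 and -2.53 ± 0.31, and GRMZM2G124927 by -3.23 ± 0.57 and -2.79 ± 0.57. Of these 8 differences, only that of GRMZM2G124927 in event 2 missed the threshold, with a limma adjusted p of 0.00128, and event 2 ear replicate 2 held 757 of its counts, against 57.1 and 223 in the other event 2 ears.

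At the other end, few members showed little tissue difference in an event. GRMZM2G435798 was the smallest in both, at -0.90 ± 1.08 in event 1 and -0.40 ± 1.08 in event 2 (limma adjusted p = 0.552 and 0.887), and without event 1 ear replicate 2 its event 1 difference was 0.17. It had 8.32, 0 and 8.43 in event 1 ears, against 7.62, 10.4 and 4.83 in ear inflorescences, while control ear inflorescences, whose values chose it, held 0.70, 99.6 and 18.3, with 1 library far above the others. In event 1 the next smallest were GRMZM2G382918, asn3, GRMZM2G075631 and Hsf26, between -1.01 and -1.06. In event 2 they were GRMZM5G855389, GRMZM2G091880, GRMZM2G551110 and AC225564.3, between -0.47 and -1.16. The last 4 had ears in event 2 replicate 2 of 16.8, 11.2, 13.4 and 29.1, in the same order, the highest of the group in each case.

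Single libraries carried some of the calls on named members. Of 46 named, 29 were called in event 1 and 30 in event 2, and leaving out 1 library at a time ended the call of 6 and 11 of them, with differences that stayed below 0 and adjusted p-values no larger than 0.00851 and 0.0185. The 46 were picked in part by their values and no share over all identifiers stands beside these counts, so nothing is read from them. In event 1, MADS34 lost its call without any 1 of 5 of the 6 libraries, event 1 ear inflorescence replicate 1 being the exception, with differences between -6.88 and -5.54. GRMZM2G124927 lost it without any 1 of the 6, between -3.51 and -2.85, GRMZM2G061499 without ear replicates 1 or 3 or ear inflorescence replicates 2 or 3, between -4.99 and -4.51, and CNX5 without ear replicates 1 or 3 or ear inflorescence replicates 1 or 3, between -2.20 and -1.88. AUX36, at -4.73, and ZYP1 lost it only without event 1 ear inflorescence replicate 1. In event 2, MADS34 lost its call without ear replicate 3 or ear inflorescence replicate 3, between -7.18 and -6.56, and GRP5 and GRMZM2G061499 without ear replicate 2 or ear inflorescence replicates 1 or 3, between -3.83 and -3.08 for GRP5 and between -5.21 and -4.43 for GRMZM2G061499. NF-YA4 (-4.21 to -3.03), ZYP1 (-2.88 to -2.11), GRMZM2G010871 (-1.90 to -1.46) and GRMZM2G064885 (-2.26 to -1.56) lost it without any 1 of the 5 libraries other than ear replicate 2. GRMZM2G576460 (-4.60 to -3.72) and GRMZM2G456217 (-4.56 to -3.73) lost it without ear replicates 2 or 3 or ear inflorescence replicates 2 or 3, GRMZM5G822131 (-1.97 to -1.64) without ear replicates 1 or 3 or ear inflorescence replicates 1 or 3, and GRMZM2G179616 (-4.55 to -3.52) without any 1 of the 5 other than ear inflorescence replicate 1.

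Members with and without a RefSeq match are described side by side, with no test between them. The median difference of the 57 matched members was -3.47 in event 1 and -3.68 in event 2, and that of the 143 unmatched members was -2.94 in event 1 and -2.26 in event 2. In event 1, 43 matched and 84 unmatched members were called lower, and in event 2, 44 matched and 54 unmatched. Among all identifiers that passed the filter, 9.81% of matched and 12.7% of unmatched ones were called lower in event 1, and 6.23% and 4.2% in event 2. The 2 libraries that stood apart were high for many members. Event 2 ear replicate 2 was the highest of its group for 162 of the 200, 39 of 57 matched and 123 of 143 unmatched, and its summed count over the members was 11046, against 4539 and 5790 in the other event 2 ears. Event 1 ear inflorescence replicate 1 was the highest of its group for 147, 26 matched and 121 unmatched. Without both libraries, an alternative chosen after seeing the data, the medians of the matched members were -3.39 and -3.63 and those of the unmatched -2.62 and -2.76 in event 1 and event 2, and 96 and 102 members were called. No share over all identifiers stands beside these counts of calls.

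The second question was whether event 1 and event 2 differed from each other, a comparison that uses no control sample. In ear inflorescence no member was called by limma, against 0.0428% of identifiers that passed the filter, and the smallest adjusted p over the members was 0.902. At an unadjusted p under 0.05 the count was 0 lower and 1 higher in event 1. DESeq2 called 0 and edgeR called 7, all lower in event 1, against 0.368% of all identifiers called lower by edgeR. The 7 were MADS34, bHLH24, asn3, GRMZM2G179616, GRMZM2G576460, GRMZM2G456217 and GRMZM2G078472. MADS34 had an edgeR difference of -1.94 (adjusted p = 1.57e-07) and a limma difference of -1.87 ± 1.13 (adjusted p = 0.902), with 1 of the 3 event 1 ear inflorescences at 14.55 and 1 of the 3 of event 2 at 2111. GRMZM2G078472 had 65.2, 72.97 and 89.5 normalized counts in event 1 ear inflorescences, against 64.3, 587 and 170.5 in event 2, where replicate 2 was far above the rest.

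GRMZM5G855389, the 1 member higher in event 1 at the unadjusted p, had 47.8, 23.7 and 27.8 in event 1 ear inflorescences, against 22.96, 4.63 and 17.1 in event 2 (1.28 ± 0.58, limma adjusted p = 0.902). GRMZM2G065678 went the other way, with 64.5, 37.9 and 39.9 in event 1, against 61.5, 99.4 and 89.1 in event 2 (-0.81 ± 0.42, adjusted p = 0.902), and GRMZM5G822131 differed by 0.58 ± 0.31 (adjusted p = 0.902). None of these differences passed the threshold. Over the members 129 of 200 lay higher in event 1 ear inflorescences, with a median of 0.14, but without event 1 ear inflorescence replicate 1 the numbers were 66 higher and 134 lower, with a median of -0.13. With all libraries, 48.8% of the identifiers that passed the filter lay lower in event 1, with a median of 0.01.

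In ear no member was called between the events by limma, against 0.0453% in the background, with a smallest adjusted p of 0.563. The count at an unadjusted p under 0.05 was 22 lower and 1 higher in event 1. DESeq2 called 0, and edgeR called 7, all lower in event 1, against 0.0835% of all identifiers called lower by edgeR. The member with the smallest p was cyp78, whose ears held 27.3, 33.99 and 37.95 in event 1, against 78.5, 102 and 59.2 in event 2, without overlap. Its difference was -1.22 ± 0.34 by limma (adjusted p = 0.563) and -1.27 by edgeR (adjusted p = 0.00469). Baf1R-1 had the next smallest p, and no fold is given because it was at the floor in the ears of both events. GRMZM2G054603, in 1 ratio to cyp78, had 16.6, 17.6 and 25.3 in event 1 ears, against 41.6, 54.8 and 40.8 in event 2 ears. AUX36 differed by -2.19 ± 0.67 and GRMZM2G064885 by -1.27 ± 0.38 (limma adjusted p = 0.703 and 0.702). Over the members 153 of 200 lay lower in event 1 ears, with a median of -0.33, but without event 2 ear replicate 2 the numbers were 98 lower and 101 higher, with a median of 0.01. With all libraries, 44.9% of the identifiers that passed the filter lay lower in event 1 ears, with a median of 0.03. The 7 photosynthesis markers summed to between 13685 and 14238 normalized counts in event 1 ears and to between 9206 and 11680 in event 2 ears, without overlap, and their part in the differences between the ears was not tested.

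The tissue difference itself was compared between the events. By limma no member was called, against 0.00504% in the background, and the smallest adjusted p was 0.777. At an unadjusted p under 0.05, 15 members had a larger fall in event 1 and 1 a larger fall in event 2. DESeq2 called 0, and edgeR called 6 with a larger fall in event 1 and 2 with a larger fall in event 2, against 0.115% and 0.287% of all identifiers. The fall was larger in event 1 for 158 members and in event 2 for 42, with a median of -0.45, but without event 2 ear replicate 2 and event 1 ear inflorescence replicate 1 the numbers were 80 and 120, with a median of 0.19. With all libraries, 46.4% of the identifiers that passed the filter had a value below 0, with a median of 0.04. The 1 member with a larger fall in event 2 by both limma at the unadjusted p and edgeR was GRMZM2G078472.

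The events are set beside control as a description only. The control samples chose the members and are shared by both comparisons, so a difference lower in ear inflorescence and higher in ear is favoured by the choice itself, and nothing is read from the counts or from the shares beside them. In ear inflorescence limma put 1 member past the threshold in event 1 and 1 in event 2, where 0.0126% and 0.0378% of identifiers that passed the filter were past it. In ear it put 1 member past it in event 1, namely Baf1R-1, and 0 in event 2, where the shares were 0.111% and 0.0353%. For event 2 ear, limma at an unadjusted p under 0.05 gave 3 lower and 28 higher, DESeq2 0, and edgeR 4 higher, where 0.112% of all identifiers were higher by edgeR.

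The member past the threshold in ear inflorescence was the same in both events, GRMZM2G097135, named after its values were seen. GRMZM2G097135 was already reported by the study, from these samples, as lower in ear inflorescence of both events, with the annotation of a BAG domain protein. It had 88.7, 101 and 90.7 normalized counts in event 1 and 118, 97.1 and 89.1 in event 2 ear inflorescences, against 1079.6, 538 and 401 in control. All 6 event samples lay between 88.7 and 118 and all 3 control samples above 400. Hsf26, GRMZM2G075631, GRMZM2G382918 and GRMZM2G010871 were also more than 1 lower on the log2 scale in both events. These 5 were picked by values that include the control samples of the rule, so their number is no result. Hsf26 had 19.4, 19.9 and 10.9 in event 1 and 7.35, 21.97 and 25.96 in event 2 ear inflorescences, against 178, 87.4 and 65.2 in control. GRMZM2G382918 had 9.01, 12.3 and 15.7 in event 1 and 15.6, 9.25 and 12.98 in event 2, against 162, 68.04 and 50.1 in control, and GRMZM2G075631 had 6.24, 16.1 and 9.67 in event 1 and 13.8, 5.78 and 7.08 in event 2, against 121, 50.9 and 35.8 in control. In all 5 control replicate 1 was the highest of the control samples. The tissue difference of GRMZM2G097135 within the events, which does not use control, was -1.08 ± 0.40 in event 1 and -1.88 ± 0.40 in event 2 (limma adjusted p = 0.0406 and 0.00195).

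**Figure D5:**
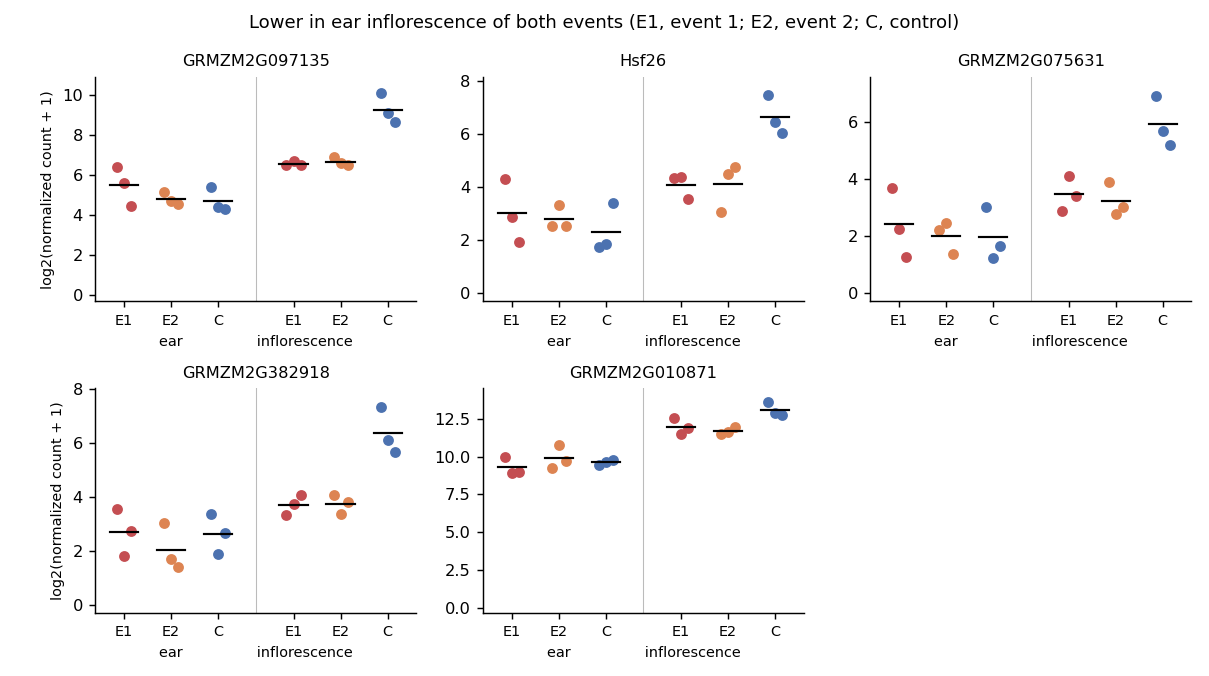
Normalized counts of the 5 members that lay more than 1 lower on the log2 scale in ear inflorescence of both events than of control, on a log2(normalized count + 1) axis, for event 1 (E1), event 2 (E2) and control (C) in ear (left) and ear inflorescence (right). Points are the 3 replicates and lines their mean on the log2 scale. Control ear inflorescence lies above both events in each panel, in samples that were used to choose the members.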

How the data were processed

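RNA from 18 samples was sequenced by the authors on an Illumina HiSeq2000 with 50-base reads. Per the labels and the study's methods, CASAVA 1.8.2 and Bowtie 0.12.8 were used, reads were mapped to the B73 transcriptome, a read mapping to more than 10 transcripts was ignored and any other was assigned to every transcript it mapped to. The deposited signal is the read count per transcript divided by a DESeq size factor. Whole reads were recovered for 740550 of 740550 low values tested (tolerance 0.011 normalized counts).

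The main test was limma 3.58.1 (R 4.3.3) on log2(normalized count + 1) with 6 group means over all 18 samples and 76612 identifiers. The study's raw p of 0.0001 was the threshold, with Benjamini-Hochberg adjusted p beside it. Replicates are biological, and field plots cannot be told apart from other sources of spread. The smallest two-sided exact permutation p for 3 against 3 is 0.1, so none is given. Recovered reads were tested with edgeR 4.0.16 and DESeq2 1.42.0 as alternatives. Counting intervals and floors cover counting error only. Named members were the 10 highest ratios, the 5 highest in control ear inflorescence and the 5 smallest falls in each event. Also named were the 5 smallest p between the events in each tissue, those nearest the limit of the rule and all with a role. Roles were given to the members with a gene name after the files were read, and all of these are named. GRMZM2G097135, GRMZM5G825885 and the pairs with the same reads were named after their values were seen. The members, lists and tests were chosen with earlier results of these data known. Functional classes from product names, promoters and proteins were not used here, and roles rest on gene symbols from RefSeq (Zm-B73-REFERENCE-NAM-5.0), whose coordinates are not given because the builds differ. Tables were handled with Python 3.11.15, pandas 2.3.3 and numpy 2.4.6.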

Additional observations from a re-analysis of the deposited data

How the results depend on the processing

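No difference that was called changed sign. Of 5888 recomputed differences of named members 334 did, all in differences that were not called. In the tissue comparisons this was 1 value, GRMZM2G435798 in event 1, at 0.17 without event 1 ear replicate 2 against -0.90 with all libraries. The others were differences between genotypes, whose signs for single members are therefore not firm. The median of event 1 minus event 2 over the members also changed sign, in alternatives chosen after seeing the data: it was 0.14 in ear inflorescence and -0.13 without event 1 ear inflorescence replicate 1, -0.33 in ear and 0.01 without event 2 ear replicate 2, and -0.45 for the tissue difference and 0.19 without both libraries. The members called lower in ear numbered 127 in event 1 and 98 in event 2. With the adjusted p under 0.05 they were 192 and 175, with a fit to the 2 groups alone 19 and 13, and with edgeR 182 and 159. By edgeR 9.92% of all 76612 identifiers were called lower in event 1 and 5.47% in event 2, and by limma 6.32% and 2.7% of the same identifiers. Leaving out 1 library at a time gave 83 to 107 in event 1, lowest without event 1 ear inflorescence replicate 1, and 69 to 102 in event 2, lowest without event 2 ear inflorescence replicate 3. Between the events, edgeR called 7 in ear inflorescence, 7 in ear and 8 for the tissue difference, and a pseudocount of 0.1 called 1 in ear and 1 for the tissue difference, against 0 each in limma. No share over all identifiers stands beside the counts with the 2 groups alone, without 1 library or with the pseudocount of 0.1. Nothing is read from those counts. Counts against control use the samples that chose the members and are no test. For event 1 against control in ear inflorescence the count of 1 became 0 with the adjusted p or the 2 groups alone, 2 with the replicate block, 8 with edgeR, 4 with DESeq2 and 0 to 1 without 1 library. For event 2 against control there it became 0 with the 2 groups alone, 2 with the block, 7 with edgeR, 4 with DESeq2 and 0 to 1 without 1 library. In ear, event 1 against control gave 0 with the adjusted p or the 2 groups alone, 2 with the block, 9 with edgeR, 2 with DESeq2 and 0 to 2 without 1 library, and event 2 against control gave 4 with edgeR and 0 to 1 without 1 library. Of the 200 members 100 stayed with a rule pseudocount of 10, 63 with a mean of at least 100, and 140 to 181 without 1 control library. The cause of these shifts was not tested.

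Whether equal replicate numbers mark samples that belong together is not known. Over 45 pairs with the same number the correlation of deviations ran from -0.515 to 0.253, and 7 exceeded 0.1. Pairs with unlike numbers were not compared, so these values do not decide it. With the replicate block 123 members were called in event 1 and 93 in event 2, with no share over all identifiers beside these counts, so nothing is read from them. Over the named members 5888 values were recomputed, of which 5674 kept their side of the threshold, 133 lost their call and 81 gained one. A value that was uncalled and stayed so also counts as kept. Of the 133 losses, 43 were in the tissue difference of event 1 and 81 in that of event 2, each out of 644 values. In these comparisons 29 and 30 of the 46 named members were called with all libraries. Small ear counts limit the precision of most differences.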
